A study of Mus musculus with 14 samples.

Results

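Endothelial cells line the blood vessels of the brain, and mural cells, the pericytes and smooth muscle cells, wrap them from outside. In the brain, endothelial tight junctions and transporters form the blood-brain barrier, which pericytes help to maintain, while smooth muscle cells set the calibre of arteries. The expression of 10 genes that mark these cells was followed in mouse hippocampus. The 10 genes were chosen by name and comprised 6 endothelial genes (Cldn5, Flt1, Pecam1, Cdh5, Tek and Slco1a4), 2 pericyte genes (Pdgfrb and Rgs5) and 2 smooth muscle genes (Acta2 and Tagln), out of 18735 genes with a value in any library. All 10 had a value in each of the 14 libraries and passed the filter on low values.

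RNA of hippocampal tissue from C57BL6 mice, labelled 30 days old, was sequenced in 14 libraries. The mice were KMT2D+/+ (wild type) or KMT2D+/bGeo, which carry 1 disrupted copy of the histone methyltransferase gene Kmt2d in all cells and are called mutant here. They received either TAK-418, which blocks LSD1, a histone demethylase encoded by Kdm1a, or the methylcellulose vehicle alone. Dosing was oral, at 1 mg/kg/day of the drug, for 2 weeks from the age of 2 weeks, so that mice of all 4 groups were gavaged. There were 5 libraries of wild-type TAK-418 and 3 of each other group, namely mutant TAK-418, mutant vehicle and wild-type vehicle. The design text of the series gives 3 to 4 animals per group, fewer than the 5 libraries labelled as wild-type TAK-418, so that this group's n = 5 may not stand for 5 mice. The labels number no replicates; the numbers used here follow the order of deposit and only tell libraries of a group apart. The tissue holds all its cell types in bulk, so fewer vascular cells and less RNA per vascular cell cannot be told apart.

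The values analysed are abundances of transcripts assembled separately in each library, on a scale per transcript length, summed per gene and scaled between libraries (scaled abundance). Relative depth, read from the smallest step between abundances, spanned 35.1 to 59.7 M over 13 libraries, and the deepest, wild-type TAK-418 replicate 1, reached 167 M. Hippocampal neuron markers were present in every group, with 10 of 10 having a value. They summed to 2197 to 2302 in wild-type vehicle and 1765 to 2293 in mutant vehicle libraries. In wild-type TAK-418 libraries they summed to 1652 to 2447, and in mutant TAK-418 to 2315 to 2412. Choroid plexus markers (12 of 12 with a value) summed to 7302 in wild-type vehicle replicate 3, 5901 in mutant vehicle replicate 1, 1112 in mutant vehicle replicate 3 and 738 in mutant TAK-418 replicate 1, against 86.7 to 149 in the other libraries. Kmt2d stood at 14.1 ± 0.234 (SD, n = 3) in vehicle wild types, 11.97 ± 2.15 (SD, n = 3) in vehicle mutants, 15.3 ± 2.38 (SD, n = 5) in treated wild types and 12.5 ± 2.74 (SD, n = 3) in treated mutants, and neither Kmt2d nor Kdm1a passed the test in any contrast.

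The members spanned about an order of magnitude in scaled abundance. Rgs5, a regulator of G protein signalling abundant in brain pericytes, was the highest, at 35.9 ± 2.00 (SD, n = 14) over all libraries. It was followed by Slco1a4, an organic anion transporter of the blood-brain barrier, at 15.99 ± 1.28 (SD, n = 14). Flt1 (8.52), Acta2 (7.33), Pdgfrb (6.47), Cldn5 (6.29) and Pecam1 (5.78) came next, and the lowest were Tagln (3.65), Tek (3.54) and Cdh5 (3.33). Below Slco1a4, each pair of neighbours in this order differed by less than the larger SD of the pair over libraries, apart from the step between Pecam1 and Tagln. The spread itself separated the members more sharply. The coefficient of variation over the 14 libraries was 5.56% for Rgs5, 7.81% for Pdgfrb, 8.01% for Slco1a4, 8.44% for Pecam1 and 8.95% for Tek. It rose to 13.4% for Flt1, 18.6% for Cdh5 and 23.1% for Acta2, and to 38.6% for Tagln and 60.6% for Cldn5. Both genes with the widest spread had transcript models that differed between libraries, as described below for each. Models also differed between libraries for Flt1, Pecam1 and Slco1a4, whose spread was smaller.

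**Figure D1:**
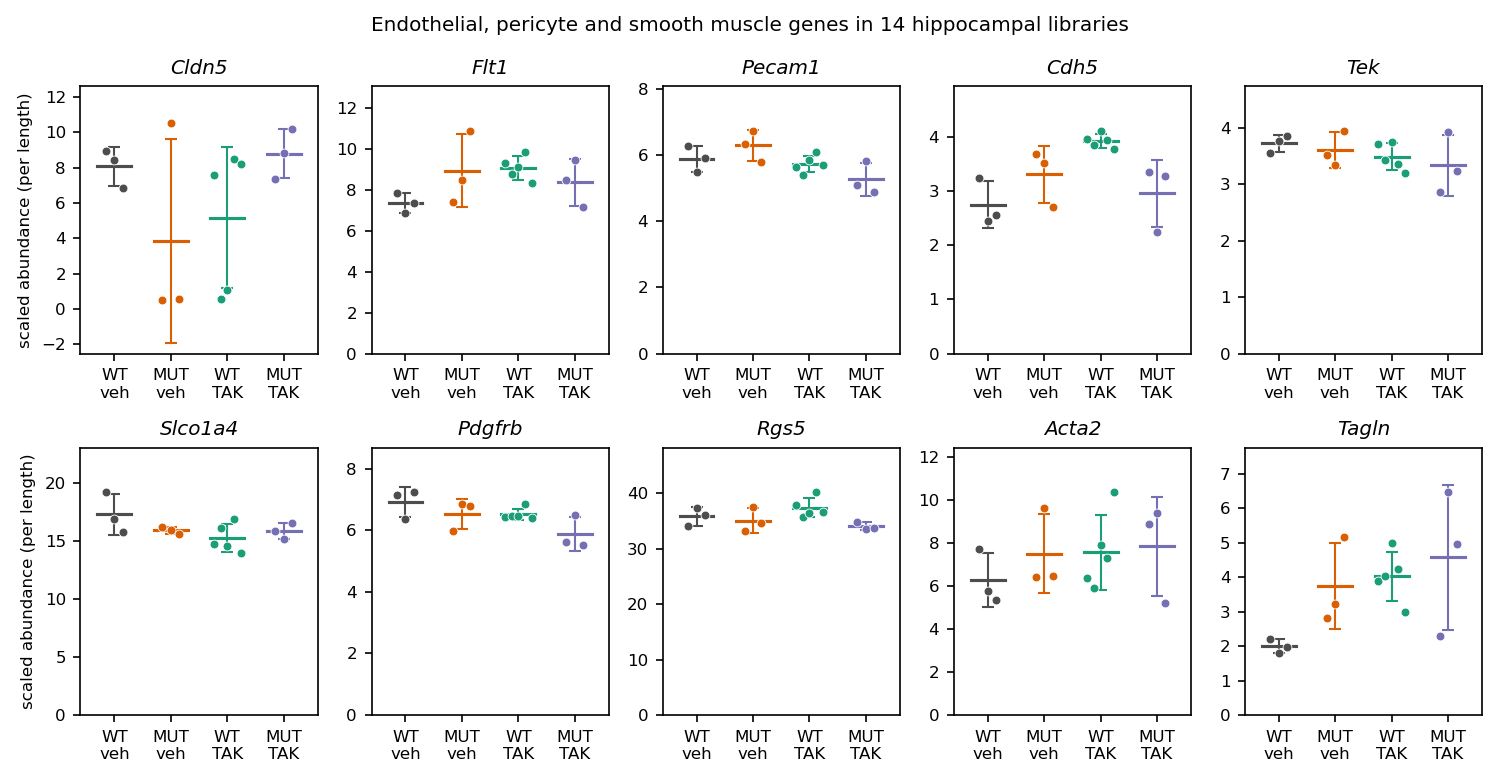
Scaled abundance (per transcript length) of the 10 genes in each library (points), with the group mean (bar) and SD (whisker), by group: wild type (WT) or mutant (MUT), vehicle (veh) or TAK-418 (TAK), n = 3, 3, 5 and 3; the SD whisker of Cldn5 in mutant vehicle reaches below 0. Rgs5 lay between 33.1 and 40.2 in all 14 libraries, while Cldn5 fell into a set of 4 libraries at or under 1.05 and a set of 10 at or above 6.83.

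No member passed the test in any contrast. Differences were tested with limma on log2(scaled abundance + 0.88) over 16580 genes, with 7 contrasts and Benjamini-Hochberg adjustment over all genes tested. Of 70 tests on members, 0 passed an adjusted p of 0.05. Their adjusted p went down to 0.364, and 12 of the 70 had an unadjusted p under 0.05. Calls were rare among all genes too: 0% of genes tested were called for the genotype effect under vehicle, 0.00603% for the drug effect in mutants, 0% for the drug effect in wild types, 0.0121% for the genotype effect under TAK-418, 0.0241% for treated mutants against vehicle wild types, 0% for vehicle mutants against treated wild types and 0.00603% for the interaction, which is the drug effect in mutants minus that in wild types.

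At an unadjusted p under 0.05, the drug effect in wild types held the most members, 4 of 10 (Flt1, Cdh5 and Tagln higher, Slco1a4 lower), where 8.42% of all genes tested had such a p. The genotype effect under vehicle held 1 of 10 (5.48% of all genes) and the drug effect in mutants 1 of 10 (4.4%). The genotype effect under TAK-418 held 2 of 10 (4.95%), treated mutants against vehicle wild types 2 of 10 (5.37%) and the interaction 2 of 10 (4.43%). Vehicle mutants against treated wild types gave 0 of 10, beside 9.24% of all genes. The median log2 difference of the members lay between -0.15 in the interaction and 0.03 in the genotype effect under vehicle, and that of all genes tested was within 0.01 of 0 in every contrast. Contrasts that share a group share its libraries, so these counts are not independent of each other.

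**Figure D2:**
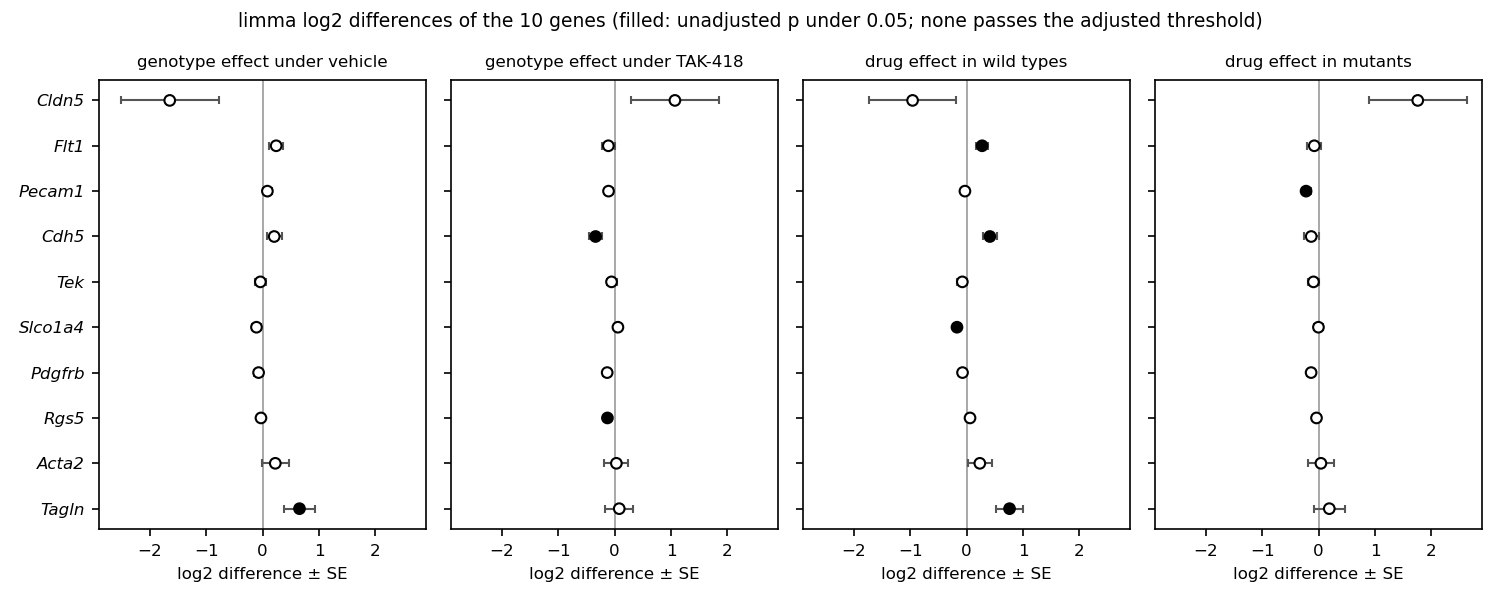
limma log2 differences (x axis, log2 scale) with their standard errors for the 10 genes (y axis) in 4 contrasts; filled points have an unadjusted p under 0.05, and no gene passes the adjusted threshold. Cldn5 has by far the widest error bars, at a standard error of 0.778 to 0.870.

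Counting instead the members whose groups did not overlap in scaled abundance, the drug effect in wild types again held the most: Flt1, Cdh5 and Tagln lay higher in all 5 treated than in all 3 vehicle libraries (3 of 10 members, with 3.94% of all genes tested so placed), and 0 lay lower (2.38% of all genes). In the genotype effect under TAK-418, Cdh5 and Rgs5 lay lower in all 3 mutants than in all 5 wild types (2 of 10, with 2.41% of all genes), and 0 lay higher (2.19%). Tagln lay higher in mutant vehicle (1 of 10, with 4.41% of all genes) and in mutant TAK-418 (1 of 10, with 5.54%) than in wild-type vehicle libraries, and 0 members lay lower in either (4.49% and 3.99% of all genes). Cdh5 lay lower in mutant vehicle than in wild-type TAK-418 libraries (1 of 10, with 3.58%), and 0 lay higher (2.66%). The drug effect in mutants separated 0 of 10 members (4.55% of all genes higher and 3.64% lower). With the abundances as deposited, not scaled between libraries, the count for the genotype effect under TAK-418 rose to 5 of 10, with Flt1, Pecam1, Cdh5, Pdgfrb and Rgs5 all lower in the mutants. Over all genes the balance moved the same way on that scale, with 6.8% of genes tested lower and 0.489% higher without overlap.

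Among the junction genes, Cldn5 encodes claudin-5, the main tight junction protein of the blood-brain barrier. It is a gene of 1 exon at chr16:18776847-18778262 on the plus strand (GRCm38). Scaled abundance was 8.96, 8.44 and 6.83 in wild-type vehicle, 0.489, 10.5 and 0.585 in mutant vehicle, 7.58, 0.568, 1.05, 8.50 and 8.20 in wild-type TAK-418 and 7.38, 8.81 and 10.2 in mutant TAK-418 libraries. The values fell into 2 sets with nothing in between: 2 of 3 mutant vehicle and 2 of 5 wild-type TAK-418 libraries were low, and the other 10 were high. The largest limma difference was the interaction, at 2.72 ± 1.17 (SE) on the log2 scale (unadjusted p = 0.0384, adjusted p = 0.976).

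The low Cldn5 libraries were also the ones whose assembly held a different set of Cldn5 models. In each of the 10 high libraries a second, unannotated model of 2 exons was present, with an abundance of 0.0477 to 0.703 that is not part of the sums. In the 4 low libraries that model was absent. The deposited abundance of the 1-exon model was 8.59 ± 1.23 (SD, n = 10) where the 2-exon model was present and 0.676 ± 0.294 (SD, n = 4) where it was absent. The 2-exon model leaves out 910 bases, chr16:18776975-18777884, which hold the whole coding region at chr16:18776996-18777649. The left-out segment begins with GT and ends with AG, the usual first and last bases of an intron on this strand. Its edges are shown because the level of the gene in a library moved with this model; capitals mark bases inside the segment, and each edge is given 5′ to 3′ from the GENCODE transcript.
Cldn5 first edge (chr16:18776960-18776989): cccaagggccgtcggGTGAGCATTCAGTCT
Cldn5 second edge (chr16:18777870-18777899): TTCTTCTATGCGCAGttggccacgacgtgg
In the authors' deposited tables, which give 1 pooled FPKM value per group, Cldn5 ran from 19.5 to 20.8 over all groups and tables. The factor between the highest and the lowest group was 1.07 there, against 2.28 between the group means of the libraries. The difference between the groups in Cldn5 scaled abundance therefore has no counterpart in the authors' deposited tables.

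Cdh5 encodes VE-cadherin, the adherens junction protein of endothelium, and lies at chr8:104101625-104144511 on the plus strand. Scaled abundance was 3.25, 2.44 and 2.56 in wild-type vehicle, 3.69, 3.52 and 2.71 in mutant vehicle, 3.96, 3.85, 4.12, 3.95 and 3.77 in wild-type TAK-418 and 3.36, 2.24 and 3.27 in mutant TAK-418 libraries. The 5 treated wild types formed the tightest and the highest group, above every vehicle wild type and every treated mutant. Cdh5 had the smallest unadjusted p of any member, in the drug effect in wild types, at a log2 difference of 0.41 ± 0.119 (SE; unadjusted p = 0.00483, limma adjusted p = 0.364). The genotype effect under TAK-418 was -0.34 ± 0.119 (SE; unadjusted p = 0.0149, limma adjusted p = 0.925), and it was -0.20 without mutant TAK-418 replicate 2, the library at 2.24. The interaction was -0.54 ± 0.179 (SE; unadjusted p = 0.0104, limma adjusted p = 0.976). Every library held 1 Cdh5 transcript of 12 exons, of 3501 to 3834 bases. The antisense gene Gm29682 (chr8:104088916-104105873, minus strand) overlaps the start of Cdh5, and reads of the 2 genes cannot be told apart, since the counting is not stated to use strand. In the authors' deposited tables, Cdh5 was 2.65 to 2.67 in wild-type vehicle and 2.71 to 2.73 in wild-type TAK-418 mice. The gap seen between these groups in the libraries was thus not present in the authors' deposited tables, which span a locus that also covers Gm29682. For the genotype effect under TAK-418 the authors' deposited table moved the same way, from 2.73 to 2.33 (p = 0.0282, q = 0.808).

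Pecam1 (CD31) is an adhesion and signalling receptor at endothelial contacts, at chr11:106654217-106750628 on the minus strand. Scaled abundance was 6.26, 5.48 and 5.89 in wild-type vehicle, 6.33, 6.74 and 5.79 in mutant vehicle, 5.65, 5.40, 5.84, 6.07 and 5.70 in wild-type TAK-418 and 5.10, 5.81 and 4.87 in mutant TAK-418 libraries. The 2 mutant groups overlapped by a single pair of libraries, 5.81 against 5.79. The drug effect in mutants was -0.22 ± 0.0791 (SE; unadjusted p = 0.0156, limma adjusted p = 1), and it shrank to -0.09 when only the highest transcript of each gene was used. The authors' deposited tables do not compare these groups directly. They gave Pecam1 at 4.76 to 4.77 in mutant vehicle and 3.98 to 4.00 in mutant TAK-418 mice.

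Pecam1 was also the member with the most transcript forms, 2 to 7 per library. Its cytoplasmic tail is encoded by several short exons, among them exon 14 and exon 15 of an annotated transcript of 16 exons. Exon 14 has 57 bases, a multiple of 3, and holds a tyrosine codon of an inhibitory signalling motif. Exon 15 has 23 bases, so that its use shifts the reading frame of what follows. Both are shown as the units whose inclusion was measured, from the GENCODE transcript, 5′ to 3′ on the minus strand, with the in-frame tyrosine codon in capitals.
Pecam1 57-base exon (chr11:106671742-106671798): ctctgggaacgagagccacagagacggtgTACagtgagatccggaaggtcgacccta
Pecam1 23-base exon (chr11:106662002-106662024): atctcatggaaaacagaTACtct
The 57-base exon was in 43.0% to 100% of the Pecam1 abundance of a library, on average 77.6% ± 21.6 (SD, n = 3) in vehicle wild types, 69.7% ± 20.8 (SD, n = 3) in vehicle mutants, 59.1% ± 18.1 (SD, n = 5) in treated wild types and 79.2% ± 10.9 (SD, n = 3) in treated mutants. The 4 groups overlapped. The 23-base exon was absent from the models of 7 of 14 libraries. It reached 87.6% in wild-type vehicle replicate 3, 63.7% in mutant TAK-418 replicate 1 and 51.4% in mutant vehicle replicate 1, and was at most 31.5% elsewhere. These 3 libraries are among the 4 with high choroid plexus markers, while the fourth, mutant vehicle replicate 3, was at 0%. The part of choroid plexus tissue in this exon's use was not tested.

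Of the receptor genes, Flt1 (VEGFR1, a receptor for vascular endothelial growth factor, VEGF) lies at chr5:147561604-147726011 on the minus strand. Besides the membrane receptor it makes a soluble form, which binds VEGF but lacks the membrane and kinase parts, by ending inside intron 13. The annotated full-length transcript has 30 exons, and the annotated short one has 13 and ends at position 147635159. The point at which the forms part is shown because the assemblies separate them there. Capitals mark the last 30 bases of exon 13, common to both, and lower case the next 30 bases, 5′ to 3′ from GENCODE. These come from exon 14, whose first base is 147634523, in the full-length form, and from intron 13 in the soluble form, which is unbroken at chr5:147639195-147639254.
Flt1 full-length form: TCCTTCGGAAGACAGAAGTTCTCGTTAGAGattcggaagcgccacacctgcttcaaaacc
Flt1 soluble form: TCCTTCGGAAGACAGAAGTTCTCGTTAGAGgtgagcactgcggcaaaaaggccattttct

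Summed over its forms, Flt1 was at 7.83, 6.86 and 7.34 in wild-type vehicle, 7.42, 8.46 and 10.9 in mutant vehicle, 9.30, 8.75, 9.12, 9.85 and 8.33 in wild-type TAK-418 and 8.47, 9.44 and 7.17 in mutant TAK-418 libraries (scaled abundance). All treated wild types were above all vehicle wild types, and both mutant groups reached into each of these ranges. The drug effect in wild types was 0.27 ± 0.110 (SE) on the log2 scale (unadjusted p = 0.0287, limma adjusted p = 0.520). The authors' deposited table for the genotype effect under vehicle put Flt1 at 5.75 in wild types and 7.05 in mutants (p = 0.0284, q = 0.764). In the libraries that same contrast was 0.24 ± 0.123 (SE), and its groups overlapped (7.42 to 10.9 against 6.86 to 7.83). For the 2 wild-type groups, which the authors' deposited tables do not compare directly, these gave 5.75 to 5.79 with vehicle and 6.92 to 6.98 with TAK-418.

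A short Flt1 model was assembled in 12 of 14 libraries, ending between 147635407 and 147638284, inside intron 13 and short of the annotated end. The deposited abundance of the full-length model was 5.24 ± 1.96 (SD, n = 3) in vehicle wild types, 6.42 ± 1.46 (SD, n = 3) in vehicle mutants, 7.0 ± 0.648 (SD, n = 5) in treated wild types and 6.0 ± 0.333 (SD, n = 3) in treated mutants. The short model was at 1.93 ± 1.8 (SD, n = 3) in vehicle wild types, 2.19 ± 1.91 (SD, n = 3) in vehicle mutants, 2.30 ± 0.306 (SD, n = 5) in treated wild types and 1.96 ± 0.454 (SD, n = 3) in treated mutants. Among libraries that held both forms, the full-length share ranged from 52.1% in wild-type vehicle replicate 1 to 80.3% in wild-type TAK-418 replicate 3. The treated libraries lay between 68.8% and 80.3%. The 2 libraries without the short form, wild-type vehicle replicate 3 and mutant vehicle replicate 1, are the 2 with the highest choroid plexus markers. They are also the 2 of lowest relative depth, at 35.1 M and 40.1 M, with the next library at 40.6 M. The part of that tissue or of depth in the missing form was not tested.

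**Figure D3:**
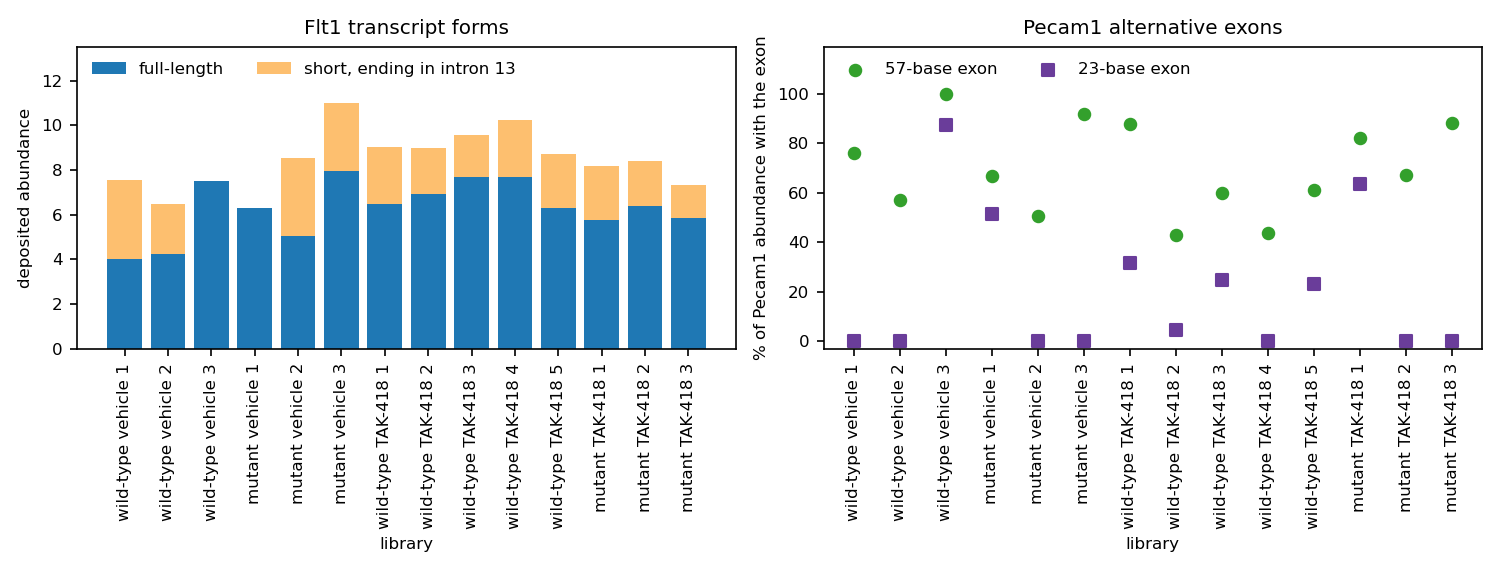
Left, deposited abundance per transcript length of the full-length and the short Flt1 models in each of the 14 libraries, stacked. Right, percent of the Pecam1 abundance in models that hold the 57-base exon (circles) and the 23-base exon (squares). The short Flt1 model is missing in wild-type vehicle replicate 3 and mutant vehicle replicate 1, and the 23-base Pecam1 exon is at 0% in 7 libraries.

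Tek encodes TIE2, the endothelial receptor for angiopoietins, and lies at chr4:94739289-94874976 on the plus strand. Scaled abundance was 3.56, 3.77 and 3.86 in wild-type vehicle, 3.53, 3.34 and 3.96 in mutant vehicle, 3.72, 3.44, 3.75, 3.36 and 3.202 in wild-type TAK-418 and 2.87, 3.93 and 3.23 in mutant TAK-418 libraries. Every pair of groups overlapped. Its smallest unadjusted p was in treated mutants against vehicle wild types, at a log2 difference of -0.13 ± 0.0991 (SE; unadjusted p = 0.205, limma adjusted p = 0.998). This Tek difference was -0.05 without mutant TAK-418 replicate 1 and -0.23 without mutant TAK-418 replicate 2. Each library held 1 transcript of 23 exons.

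Slco1a4 stands for the transport function of the barrier; the gene lies at chr6:141805440-141856199 on the minus strand. Scaled abundance was 19.2, 16.9 and 15.8 in wild-type vehicle, 16.2, 15.97 and 15.6 in mutant vehicle, 14.7, 16.2, 14.6, 16.9 and 13.97 in wild-type TAK-418 and 15.9, 15.2 and 16.6 in mutant TAK-418 libraries. The highest value, in wild-type vehicle replicate 1, stood above the rest, and the groups overlapped. The drug effect in wild types was -0.17 ± 0.0711 (SE; unadjusted p = 0.0328, limma adjusted p = 0.533). Without wild-type vehicle replicate 1 it was -0.10 (unadjusted p = 0.200), with upper quartile scaling -0.11, and with only the highest transcript of each gene it turned to 0.03. Part of the abundance was in short models that begin further towards the 3′ end: the share in models that hold the exon at chr6:141826242-141826340, upstream of the short ones, was 64.0% in wild-type vehicle replicate 1 and 78.4% to 100% in the others, with 4 libraries holding no short model. This share averaged 81.4% ± 18.03 (SD, n = 3) in wild-type vehicle and 92.1% ± 10.8 (SD, n = 5) in wild-type TAK-418 libraries, and these groups overlapped. The library with the highest sum was thus also the one with the largest share of short models. The authors' deposited tables gave Slco1a4 at 11.8 to 11.9 in wild-type vehicle and 10.5 to 10.6 in wild-type TAK-418 mice.

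The 2 pericyte genes were the steadiest of the members. Pdgfrb, the receptor for platelet-derived growth factor B through which endothelium recruits pericytes, lies on chromosome 18. Scaled abundance was 7.15, 6.36 and 7.23 in wild-type vehicle, 5.97, 6.83 and 6.79 in mutant vehicle, 6.43, 6.46, 6.47, 6.84 and 6.39 in wild-type TAK-418 and 5.63, 6.50 and 5.51 in mutant TAK-418 libraries. A single treated mutant, at 6.50, overlapped with the other groups, and the other two were the lowest of all 14. Treated mutants against vehicle wild types gave -0.21 ± 0.0765 (SE; unadjusted p = 0.0195, limma adjusted p = 0.840), and -0.06 with only the highest transcript of each gene. In 13 of the 14 libraries Pdgfrb had a single transcript. All 28 alternatives kept the sign of this difference, with a smallest limma adjusted p of 0.693. The authors' deposited table for this contrast gave 4.94 in vehicle wild types and 4.35 in treated mutants (p = 0.149, q = 1.00).

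Rgs5 (chr1:169655501-169695813, plus strand) was at 34.1, 37.4 and 36.1 in wild-type vehicle, 33.1, 37.6 and 34.6 in mutant vehicle, 37.9, 35.8, 36.6, 40.2 and 36.6 in wild-type TAK-418 and 34.9, 33.6 and 33.8 in mutant TAK-418 libraries (scaled abundance). All treated mutants were below all treated wild types, by a small margin, and both vehicle groups covered the gap. The genotype effect under TAK-418 was -0.13 ± 0.0502 (SE; unadjusted p = 0.0254, limma adjusted p = 0.925), and -0.22 with abundances as deposited. The authors' deposited table gave 25.4 and 23.3 for the same groups (p = 0.122, q = 0.808). Every library held 1 Rgs5 model of 5 exons, and all 14 began at the same base, 169655521, which lies 20 bases inside the annotated start.

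Acta2, smooth muscle actin, lies at chr19:34241090-34255590 on the minus strand. Scaled abundance was 7.69, 5.75 and 5.34 in wild-type vehicle, 6.43, 9.63 and 6.45 in mutant vehicle, 6.38, 5.91, 7.88, 7.31 and 10.4 in wild-type TAK-418 and 8.89, 9.41 and 5.21 in mutant TAK-418 libraries. Each group other than wild-type vehicle had at least 1 library above 9, and all groups overlapped. The smallest unadjusted p was in treated mutants against vehicle wild types, at 0.26 ± 0.238 (SE; unadjusted p = 0.289, limma adjusted p = 0.998). Leaving out 1 library at a time moved this difference between 0.13 (without mutant TAK-418 replicate 2) and 0.50 (without mutant TAK-418 replicate 3). The authors' deposited table for this contrast had Acta2 at 3.64 and 4.67 (p = 0.0285, q = 0.791).

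Tagln encodes transgelin (SM22), an actin-binding protein of smooth muscle, and lies at chr9:45929619-45936058 on the minus strand. Scaled abundance was 2.20, 1.798 and 1.98 in wild-type vehicle, 2.82, 3.23 and 5.17 in mutant vehicle, 3.88, 4.03, 4.98, 4.25 and 3.00 in wild-type TAK-418 and 2.30, 6.47 and 4.95 in mutant TAK-418 libraries. Every other library was above the 3 vehicle wild types. The drug effect in wild types was 0.76 ± 0.245 (SE; unadjusted p = 0.00920, limma adjusted p = 0.430). The genotype effect under vehicle was 0.65 ± 0.274 (SE; unadjusted p = 0.0346, limma adjusted p = 0.867), and treated mutants against vehicle wild types gave 0.84 ± 0.274 (SE; unadjusted p = 0.00975, limma adjusted p = 0.797).

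The length of the assembled Tagln model moved with these values. In 7 libraries it was 2532 to 2579 bases long and ended at position 45928511, beyond the annotated gene and within Pcsk7, a gene on the opposite strand (chr9:45906497-45929726). These were all 3 wild-type vehicle, 2 of 3 mutant vehicle, 1 of 5 wild-type TAK-418 and 1 of 3 mutant TAK-418 libraries. In the other 7 it was 675 to 1176 bases long. Deposited abundance per length was 2.46 ± 0.563 (SD, n = 7) in libraries with the long model and 4.77 ± 0.686 (SD, n = 7) in those with the short one, with no overlap (at most 3.31 against at least 3.77). Multiplied by length, the order turned: 6.31 ± 1.47 (SD, n = 7) with the long and 4.58 ± 0.974 (SD, n = 7) with the short model, and the ranges overlapped.

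On that scale, deposited abundance of the most abundant Tagln model times its length in kilobases, the groups no longer separated. The means were 5.19 ± 0.479 (SD, n = 3) in vehicle wild types and 6.45 ± 1.91 (SD, n = 3) in vehicle mutants. They were 5.02 ± 2.06 (SD, n = 5) in treated wild types and 5.41 ± 0.414 (SD, n = 3) in treated mutants. The limma fit used abundance times length summed over models and scaled between libraries, with its own pseudocount. Its Tagln differences were -0.16 for the drug effect in wild types and 0.35 for the genotype effect under vehicle. In treated mutants relative to vehicle wild types the difference was 0.10. The antisense gene Gm48529 (chr9:45930112-45933738) also overlaps Tagln, and reads of the 3 genes cannot be told apart without strand. The authors' deposited tables had Tagln at 2.95 to 2.97 in wild-type vehicle, 4.45 in mutant vehicle, 3.37 to 3.40 in wild-type TAK-418 and 3.65 to 3.66 in mutant TAK-418 mice, within a locus (chr9:45838580-45936058) wider than the gene. No p for Tagln in the authors' deposited tables was under 0.05, the smallest being 0.456.

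**Figure D4:**
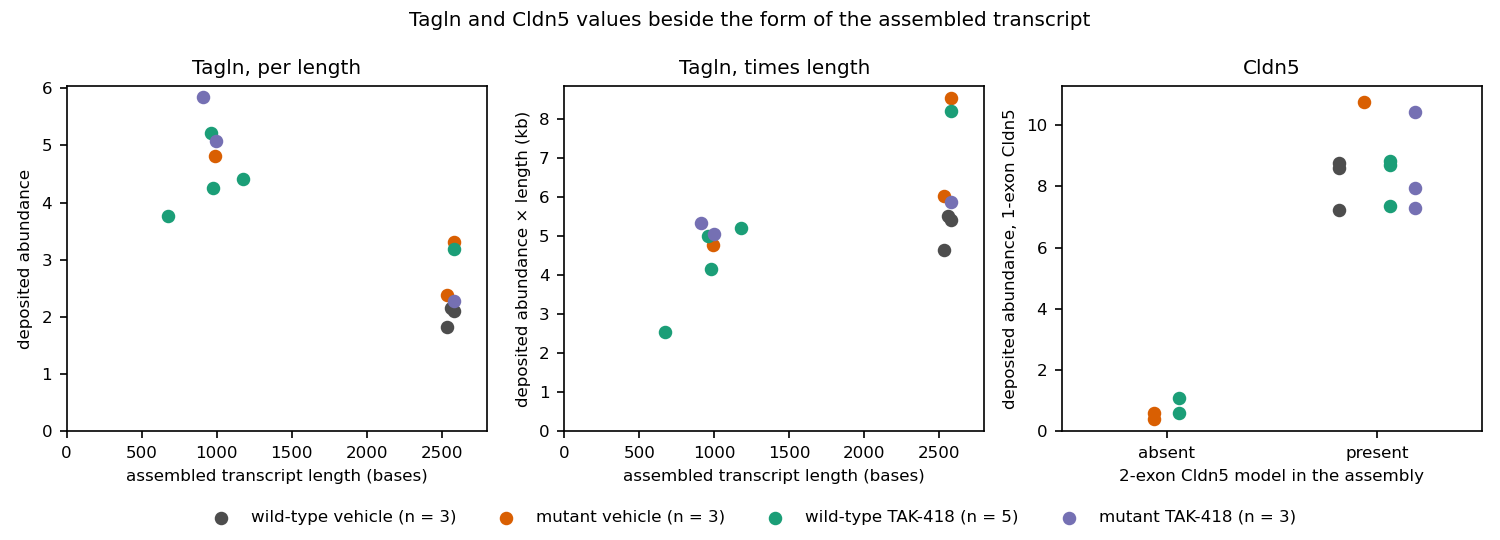
Left and middle, Tagln in each library: deposited abundance per length, and the same times length in kilobases, against the length of the assembled transcript. Right, deposited abundance of the 1-exon Cldn5 model in libraries without (4) and with (10) the 2-exon model. Long Tagln models have the lower values per length but not times length, and all 4 libraries without the 2-exon Cldn5 model are at or under 1.10.

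Apart from Cldn5, Cdh5 and Tagln, the members spanned similar factors over the groups in the authors' deposited tables and in the libraries. The authors called 0 of 10 members at a q-value under 0.05 in each of their 4 deposited tables, where 0.224% of tested loci were called for the genotype effect under vehicle, 0.218% for the genotype effect under TAK-418, 0.324% where treated mutants were set against vehicle wild types and 0.611% for vehicle mutants against treated wild types. At an unadjusted p under 0.05 the authors' deposited tables held 1 of 10 members in the first (4.32% of loci), 1 of 10 in the second (4.1%), 1 of 10 in the third (4.49%) and 0 of 10 in the fourth (6.48%). These were Flt1, Cdh5 and Acta2, in that order. The authors' deposited tables pool the same groups of this series as the libraries, so they were not taken as independent of them. Over the 4 groups, the highest value in the authors' deposited tables exceeded the lowest by a factor of 1.09 for Rgs5, 1.13 for Slco1a4 and Tek, 1.14 for Pdgfrb, 1.198 for Pecam1, 1.23 for Flt1 and 1.29 for Acta2. The same factor between group means of the libraries was 1.10, 1.13, 1.11, 1.18, 1.19, 1.24 and 1.25 for Rgs5, Slco1a4, Tek, Pdgfrb, Pecam1, Flt1 and Acta2.

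**Figure D5:**
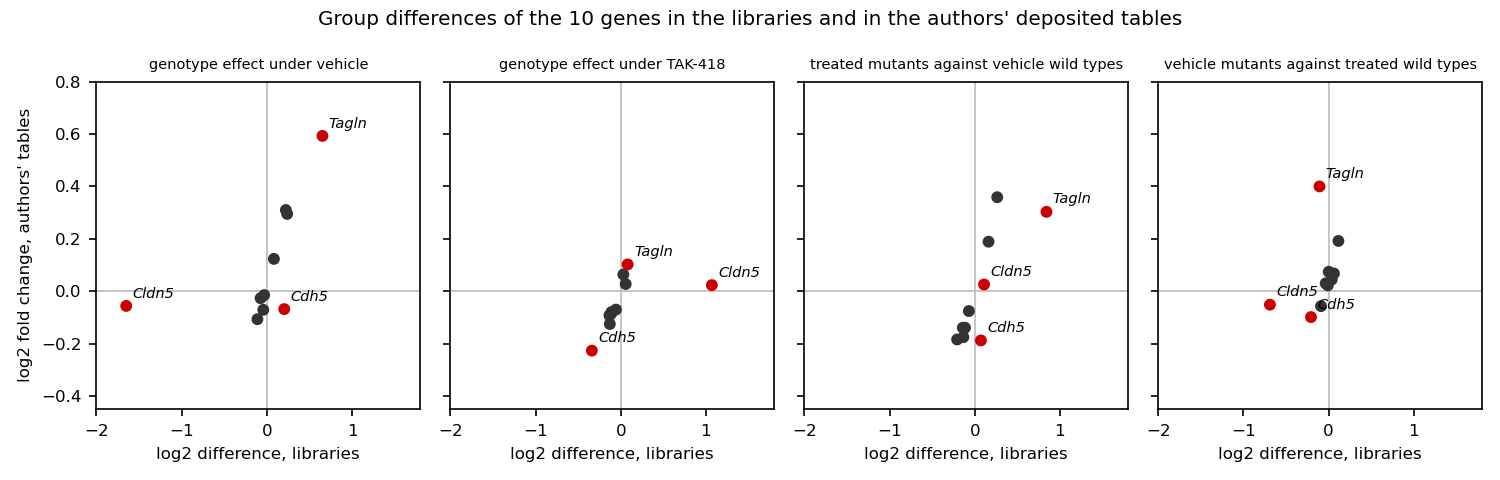
log2 fold change in the authors' deposited tables (y axis) against the limma log2 difference between libraries (x axis) for the 10 genes in the 4 contrasts the tables cover; Cldn5, Cdh5 and Tagln are in red. Cldn5 spans -1.65 to 1.07 in the libraries and -0.06 to 0.03 in the tables.

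Promoter sequence was at hand for 6 of the 10 members, from RefSeq windows of GRCm38.p6 that run from 250 bases before the start site. Windows of 300 bases were searched on both strands for GGAA, the core bound by ETS factors, which are central to endothelial gene expression, and for CANNTG (E-box), GGGCGG (Sp1 box), TATAAA and the CArG box bound by serum response factor. Of 32851 windows, 96.0% held GGAA, 72.3% CANNTG, 35.7% GGGCGG, 13.6% TATAAA and 1.63% an exact CArG box. GGAA matched 4 times in Flt1, 4 in Rgs5, 5 in Slco1a4, 3 in Acta2, 2 in Tek and 0 in Cldn5, beside a median of 3 over all windows. GGGCGG matched 3 times in Flt1 and 1 time in Cldn5, and TATAAA only in Flt1, 31 bases before the start site. A match is a description and was not tested for use.

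The windows of Flt1, the 1 member window with TATAAA, Rgs5, whose start was the same in all libraries, and Acta2 are shown 5′ to 3′ on the gene's strand, up to 25 bases past the start site. Capitals mark GGAA or its reverse complement in Flt1 and Rgs5. No member window held an exact CArG box, the element through which serum response factor drives smooth muscle genes. Allowing 1 letter to differ, which was added after no exact match was found, Acta2 held 2 matches, in capitals in its sequence, and the endothelial genes Tek and Slco1a4 held 1 each, where 21.1% of all windows held any.
Flt1 promoter (chr5:147725987-147726261, minus strand): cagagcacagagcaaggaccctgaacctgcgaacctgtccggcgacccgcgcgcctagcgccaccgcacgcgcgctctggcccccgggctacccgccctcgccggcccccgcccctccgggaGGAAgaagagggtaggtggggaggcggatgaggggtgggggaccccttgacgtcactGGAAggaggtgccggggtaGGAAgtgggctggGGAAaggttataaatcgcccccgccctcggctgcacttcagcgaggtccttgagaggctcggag
Rgs5 promoter (chr1:169655251-169655525, plus strand): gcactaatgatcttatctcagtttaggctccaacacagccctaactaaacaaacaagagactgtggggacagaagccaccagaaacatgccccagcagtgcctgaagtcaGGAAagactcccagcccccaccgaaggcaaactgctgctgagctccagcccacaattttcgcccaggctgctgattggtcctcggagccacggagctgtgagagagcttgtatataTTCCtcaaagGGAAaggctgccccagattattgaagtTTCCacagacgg
Acta2 promoter (chr19:34255349-34255623, minus strand): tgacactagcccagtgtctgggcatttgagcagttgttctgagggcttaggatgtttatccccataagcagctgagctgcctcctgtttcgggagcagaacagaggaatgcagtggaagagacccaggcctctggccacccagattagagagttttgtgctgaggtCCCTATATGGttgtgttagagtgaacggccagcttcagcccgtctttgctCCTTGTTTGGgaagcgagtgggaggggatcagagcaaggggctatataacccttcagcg

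Another 90 vascular genes in 5 lists set the members in context, of which 86 passed the filter on low values. No gene of these lists passed the limma test in any of the 7 contrasts (0 of 602 tests, smallest adjusted p = 0.307), and 41 tests had an unadjusted p under 0.05. By contrast, such a p was found for 12 of 86 in the wild-type drug effect (10 higher, 2 lower), which is 14% beside 8.42% of all genes. In vehicle mutants against treated wild types it was found for 11 of 86 (12.8% beside 9.24%), and where treated mutants were set against vehicle wild types for 7 of 86 (8.14% beside 5.37%). The drug effect in mutants held 5 of 86 (5.81% beside 4.4%), the genotype effect under TAK-418 3 of 86 (3.49% beside 4.95%), the interaction 2 of 86 (2.33% beside 4.43%) and the genotype effect under vehicle 1 of 86 (1.16% beside 5.48%). These shares are a description, and nothing was tested on them. The median log2 difference of a list stayed between -0.12 and 0.14 in every contrast. In the endothelial receptor, junction and identity list, 21 genes were higher and 5 lower in the genotype effect under vehicle. These counts were 11 and 15 under TAK-418 and 7 and 19 in the interaction. For the barrier transport list they were 14 and 2, 4 and 12, and 1 and 15. The ligand and Wnt list gave 12 and 6, 6 and 12, and 6 and 12. The pericyte list gave 9 and 5, 7 and 7, and 3 and 11. Smooth muscle genes gave 8 and 4, 7 and 5, and 6 and 6. The members gave 5 and 5, 4 and 6, and 2 and 8. Some lists of other cells also leaned lower in the interaction, such as fibroblast and meninges (1 and 11) and hippocampal neuron (2 and 8). Microglia (5 and 3) and oligodendrocyte (3 and 3) lists did not. The genes share libraries, and these counts were not tested.

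Among 27 endothelial receptor, junction and identity genes, Itm2a and Ly6c1 were the most abundant, at 35.3 ± 2.13 and 34.3 ± 6.13 (SD, n = 3) in wild-type vehicle libraries. The smallest unadjusted p belonged to Vwf, von Willebrand factor, at 4.89 ± 1.86 (SD, n = 3) in mutant vehicle and 2.73 ± 0.258 (SD, n = 5) in wild-type TAK-418 libraries (limma adjusted p = 0.353), with overlap. Next was Sox18, an endothelial transcription factor, at 4.39 ± 0.303 (SD, n = 3) in vehicle and 6.20 ± 1.197 (SD, n = 5) in treated wild types, with no overlap (limma adjusted p = 0.444). Among 16 barrier transport genes, Bsg and Spock2 were the most abundant. Slc7a5, the large neutral amino acid transporter, was at 24.6 ± 0.457 (SD, n = 3) in vehicle and 28.1 ± 1.66 (SD, n = 5) in treated wild types, again without overlap (limma adjusted p = 0.307). The amino acid transporter gene Slc38a5 was at 3.26 ± 0.188 (SD, n = 3) in vehicle wild types and 4.44 ± 0.423 (SD, n = 3) in treated mutants (limma adjusted p = 0.739).

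The third list held 18 genes of ligands and Wnt signalling, in which Nrp1 and Vegfa were the most abundant. Vegfd, a ligand of VEGF receptors, was at 2.06 ± 0.488 (SD, n = 3) in vehicle wild types and 3.46 ± 0.372 (SD, n = 3) in treated mutants (limma adjusted p = 0.515). Wnt7a, which acts on brain endothelium to set up the barrier, was at 6.28 ± 0.400 (SD, n = 3) in mutant vehicle and 7.85 ± 0.896 (SD, n = 5) in wild-type TAK-418 libraries, with overlap (limma adjusted p = 0.353). In the pericyte list (14 of 15 with a value, Foxc1 listed at 0), Vtn and Mcam led in abundance. Anpep (CD13) was at 2.93 ± 1.09 (SD, n = 3) in mutant vehicle and 1.40 ± 0.117 (SD, n = 5) in wild-type TAK-418 libraries (limma adjusted p = 0.353), and Zic1 at 3.58 ± 0.731 and 4.87 ± 0.372 (SD, n = 3) in wild-type and mutant vehicle libraries (limma adjusted p = 0.917). In the smooth muscle list of 14 genes, Tpm1 and Srf led in abundance. Srf, serum response factor itself, was at 21.1 ± 0.490 (SD, n = 3) in vehicle and 23.8 ± 1.17 (SD, n = 5) in treated wild types, without overlap (limma adjusted p = 0.350). Smtn, smoothelin, was at 2.42 ± 0.103 (SD, n = 3) and 3.09 ± 0.441 (SD, n = 5) in the same groups (limma adjusted p = 0.476). Several of these differences moved with the gene value used. With abundance times length, which took its own pseudocount, the log2 difference went from 0.63 to 0.17 for Vwf and from 0.69 to 0.11 for Anpep. It went from 0.16 to 0.34 for Srf and from 0.38 to 0.89 for Zic1.

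The summed levels of the lists showed no wide split between groups. The smooth muscle list summed to 169 to 184 in wild-type vehicle, 174 to 190 in mutant vehicle, 181 to 187 in wild-type TAK-418 and 177 to 186 in mutant TAK-418 libraries. For the pericyte list these ranges were 87.4 to 95.1, 93.9 to 98.0, 80.5 to 94.2 and 85.2 to 92.0. For the endothelial receptor, junction and identity list they were 216 to 240, 237 to 257, 217 to 253 and 217 to 245. The barrier transport list had 856 to 917, 883 to 983, 865 to 956 and 838 to 900. A few genes carry much of a sum: Tpm1 averaged 106 in wild-type vehicle, where the smooth muscle list averaged 177. Markers of perivascular macrophages, cells that share the vessel wall (5 of 5 with a value), summed to 8.03 to 9.81 in mutant vehicle and 3.65 to 7.44 in the other libraries. Fibroblast and meninges markers (12 of 12 with a value) were at 133 and 146 in the 2 libraries with the highest choroid plexus markers and at 80.4 to 103 in the others. Blood markers, mainly globin genes (6 of 6 with a value), ranged from 310 to 1005. The part of these cells in the members' values was not tested.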

How the data were processed

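RNA of 14 hippocampal samples was analysed. Per the labels' protocols, libraries were made with NEBNext Ultra or UltraII RNA kits, which library with which is not stated. The submitters' processing notes name mm10, TopHat2 2.1.0 and FastQC. Transcripts were assembled per library with CLASS 2.1.7, per the file headers; each deposited transcript carries an abundance score, per length. The authors' 4 deposited comparison tables hold pooled FPKM values, a log2 fold change, a p-value and a q-value per locus. Their group order was checked against the libraries. Over 8913 to 8927 genes, log2 ratios between groups in the authors' deposited tables and in the libraries correlated at only 0.31 to 0.48. Abundance times length fell on whole multiples of 1 step (within 0.1 step) for 94.9% to 98.8% of values checked, and the step gives the relative depth; the number of reads is not given.

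Transcripts were assigned to GENCODE M21 genes (GRCm38, 55450 genes) by shared introns, or, with 1 exon, by overlap with exons of at least 0.5 of their length, and summed. Between libraries, values were scaled by median of ratios, taken over 13274 genes with a value in all 14. The filter kept genes with values in 3 or more libraries, which were tested with limma 3.58.1 (eBayes with trend, R 4.3.3; 4 group means), after tests on simulated data. The pseudocount 0.88 is the 10th percentile of values above 0. Unless an alternative is named, differences are on the log2(value + 0.88) scale, which understates changes of low genes. Differences with abundance times length took the 10th percentile of that measure as pseudocount instead. Nothing in the labels says that the libraries are separate mice, so p-values measure the spread between these samples, which may be technical. Isoforms, overlap and motifs were described without a test; tables and plots were made in Python 3.11.15 (matplotlib 3.10.9, pandas 2.3.3, scipy 1.17.1, numpy 2.4.6).

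The members and lists were chosen with earlier results of these data known. By rule, a member's statistics are printed for its contrast with the smallest unadjusted p and for each with p under 0.05, and each list names its 2 most abundant genes and the 2 with the smallest p. Alternatives varied the pseudocount, filter, scaling, gene value, model and libraries.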

Additional observations from a re-analysis of the deposited data

Results flagged for a closer look

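Among 15 sets of 5 wild-type TAK-418 values checked (the 10 members and 5 transcript measures), 2 held a library far from the other 4, by a gap above 0.71 of the range, where chance gives about 1 in 20. Pdgfrb was at 6.84 in wild-type TAK-418 replicate 4, with a gap of 0.834 of the range to the next library. The assembled Tagln transcript was 2579 bases long in wild-type TAK-418 replicate 5, with a gap of 0.737 of the range. That library had the lowest Tagln scaled abundance of its group, 3.00, and the highest Acta2, 10.4.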

How the results depend on the processing

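None of the 195 recomputed counts of members called in the 7 contrasts was above 0; the smallest adjusted p over them was 0.240, in treated mutants against vehicle wild types without mutant TAK-418 replicate 1. The fit limited to the groups compared was not run for the interaction, and Cldn5 has no value from multi-exon transcripts only. Of the printed member differences, 2 turned sign: Slco1a4 in the drug effect in wild types to 0.028 (highest transcript only) and Tagln in the same contrast to -0.16 (abundance times length). Members whose groups do not overlap, with abundances as deposited, numbered 2 in the genotype effect under vehicle (7.29% of all genes in either direction), 1 in the drug effect in mutants (5.47%), 5 in the genotype effect under TAK-418 (7.29%) and 3 in treated mutants against vehicle wild types (8.88%). Leaving out the libraries highest in choroid plexus markers, replicate 3 of wild-type vehicle and replicate 1 of mutant vehicle, these counts were 3 (30.4% of all genes), 1 (16.3%; Pdgfrb), 2 (4.6%) and 2 (19.6%), and the drug effect in wild types held 4 (15.2%), with Slco1a4 added. With abundance times length, an alternative chosen after seeing the data, the genotype effect under vehicle and vehicle mutants against treated wild types each held 0 (9.22% and 6.48% of all genes). On that scale the drug effect in wild types held Flt1 and Cdh5 higher and Slco1a4 lower (6.47% of all genes in either direction). Treated mutants against vehicle wild types held Slco1a4, lower (9.74%). The cause was not tested, except that fewer libraries make overlap rarer by construction. Counting only transcripts with an abundance of 1 or more moved the shares of Flt1 and Pecam1 forms by less than their SD. No paired analysis was possible because nothing in the labels links a library of 1 group to a library of another. The replicate numbers used here follow the order of deposit and pair nothing. By their lowest library, Cldn5 and Tagln rest on the fewest steps, 23 to 1699 and 190 to 442 per library, against 4258 to 23373 for Rgs5. Cldn5 had 321 steps in the shallowest library, wild-type vehicle replicate 3 (relative depth 35.1 M). It had 23 in mutant vehicle replicate 1 (40.1 M).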

Other observations

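Over the 14 libraries, log2 deviations of the members went together only in part. Of 45 pairs, 27 had a positive Pearson r, with a median of 0.10. The highest was Pecam1 with Pdgfrb (r = 0.677, rho = 0.657), an endothelial and a pericyte gene, followed by Flt1 with Tagln (r = 0.669, rho = 0.714) and Tek with Pdgfrb (r = 0.561, rho = 0.446). Cdh5 with Tek was the lowest (r = -0.486, rho = -0.429), though both mark the same cells. Tagln was lower where its assembled transcript was longer (r = -0.844, rho = -0.702). These libraries share groups, depth and dissection, so the values are a description.

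Across 13274 genes measured in every library, members aside, those most like the mean of the 6 endothelial members were Rbbp6 (r = 0.883), Zfp281 (r = 0.844), Uchl5 (r = 0.835), Dpp10 (r = 0.826) and Kif3a (r = 0.825). That mean is led by the wide spread of Cldn5. Without Cldn5, an alternative chosen after its values were seen, the nearest genes were Adgrf5 (r = 0.843), an adhesion receptor gene expressed in endothelium, Ecpas (r = 0.798), C130074G19Rik (r = 0.779), Egfl6 (r = 0.772) and Rgl1 (r = 0.760). For the smooth muscle pair they were Nckipsd (r = 0.882), Myc (r = 0.868), Cacnb3 (r = 0.851), Palm (r = 0.848) and Smarcb1 (r = 0.825). All these r values are the highest picked from 13274 genes over only 14 libraries. They were not tested and are a description.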
